A study of Mus musculus with 11 samples.

Results

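The transcripts described here encode the secreted and membrane-bound cues that steer growing axons and the receptors that read them. They were chosen by gene symbol, as the Slit, Robo, netrin (Ntn), Unc5, semaphorin (Sema), plexin (Plxn), neuropilin (Nrp), ephrin (Efn) and Eph receptor (Eph) families. Of 68 mouse symbols in these families, 43 had a value among the 14272 genes of the tables, and the other 25 were not analysed here. Total RNA was sequenced from 4 murine lines. Melan-a is a spontaneously immortalized line of nonmalignant melanocytes, syngeneic to C57Bl/6, and its medium held PMA, a phorbol ester, at 200 nM. 4C, 4C11- and 4C11+ descend from melan-a through repeated cycles of forced detachment and re-adhesion, and their medium held none, so that this agent cannot be told apart from the line. 4C is a pre-malignant, non-tumorigenic line, 4C11- is a non-metastatic melanoma line and 4C11+ is a metastatic melanoma line. Melan-a and 4C11+ have an epithelial morphology, and 4C and 4C11- are mesenchymal-like. Each stage is a single line, so a difference between stages is a difference between these lines. There were 2 libraries of melan-a (replicates 2 and 3) and 3 libraries of each other line. The methods describe triplicates of each line and do not say whether these were separate cultures.

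Slits are secreted proteins that repel axons through Robo receptors. Netrins attract through Dcc and Neo1 and repel through Unc5 receptors, which are also known as dependence receptors. Secreted class 3 semaphorins bind neuropilins, which pair with plexins, whereas most membrane-bound semaphorins bind plexins directly. Ephrins are membrane-anchored ligands of the Eph receptor tyrosine kinases, the A class held by a lipid anchor and the B class by a transmembrane segment, and the signal runs in both directions at cell contacts. Melanocytes come from the neural crest, whose migrating cells are guided by several of these families.

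All levels are log2 CPM, the log2 of read counts scaled to library size, on a scale whose distribution is nearly the same in every library. The lowest values lie on steps of single reads, which gave an estimated depth of 3.5 to 7.42 M reads and a value for 3 reads of -2.01 to 0.15, depending on the library. A gene with at most 3 reads in every library of a group is called near absent there. Its difference from another group is given as a bound, from the values at 3 reads to the mean of the other group. The bound holds for that mean and not for each library. The 2 melan-a libraries stood apart from each other in some genes. The range exceeded 2 log2 units in 8 of the 43 members in melan-a, against 8.7% of all genes, and in 0, 4 and 5 members in 4C, 4C11- and 4C11+ (7.0%, 16.7% and 5.3% of all genes). Outside the members, Pdgfrb was 6.90 in melan-a replicate 2 and 0.89 in replicate 3, Cd68 was 6.35 and 2.67, and the melanocyte gene Tyrp1 was 8.51 and 12.63. Results that rest on melan-a are therefore given with and without each of these libraries for several counts and genes, but not for all.

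The labelled cell types were compared with their markers. The 9 measured melanocyte markers of a list of 10 summed to 1866.6 and 9056.6 CPM in melan-a and to 10612.9 to 12902.6 CPM in 4C11+, but to 3.2 to 11.7 CPM in 4C and 4C11-, where 4 to 7 of them had at most 3 reads in a library. The 3 measured fibroblast markers of 7 summed to 1933.9 to 2576.6 CPM in 4C and 4C11- and to 19.6 to 205.3 CPM in the other lines. The epithelial label did not extend to epithelial genes. Krt18, a keratin, was 7.64 to 9.40 in 4C and 4C11- and at most -0.25 in melan-a and 4C11+, and E-cadherin (Cdh1) was at most 1.36 in any library. Of 9 measured mesenchymal-state markers of 10, 5 were higher in the mesenchymal-like lines, among them Zeb1, Snai1, Twist1 and Prrx2, and 3 were lower. The lower ones were Cdh2 (N-cadherin, 0 reads in 4C and 4C11-), Snai2 and Vim. Cdh5, the 1 measured endothelial marker of 5, was 92.9 to 172.1 CPM in 4C11-, 0.6 to 16.1 CPM in 4C and at most 0.4 CPM in the other lines. These lists therefore moved with the phenotype contrast used for the guidance genes, and their part in it was not tested. In bulk samples, fewer cells with a transcript and less RNA per cell cannot be told apart.

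To show the sequence in front of members that were near absent in one phenotype, RefSeq promoter windows (GRCm38.p6) were read for 37 of the 43 members. The 250 bases before the start are printed for Epha8, which was near absent in the epithelial lines, and for Sema6d and Sema3d, which were near absent in the mesenchymal-like lines. Capitals mark a palindromic E-box (CACGTG), the E-box letters read by ZEB and SNAI repressors (CACCTG) and the core letters of SOX factors (ACAAAG, or CTTTGT on the other strand).
Epha8, chr4:136956817-136957066, minus strand: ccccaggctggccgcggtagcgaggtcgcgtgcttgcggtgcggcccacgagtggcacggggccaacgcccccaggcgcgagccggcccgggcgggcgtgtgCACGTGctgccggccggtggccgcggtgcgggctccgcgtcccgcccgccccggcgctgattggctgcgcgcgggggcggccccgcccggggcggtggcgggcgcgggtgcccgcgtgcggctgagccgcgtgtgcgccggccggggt
Sema6d, chr2:124089719-124089968, plus strand: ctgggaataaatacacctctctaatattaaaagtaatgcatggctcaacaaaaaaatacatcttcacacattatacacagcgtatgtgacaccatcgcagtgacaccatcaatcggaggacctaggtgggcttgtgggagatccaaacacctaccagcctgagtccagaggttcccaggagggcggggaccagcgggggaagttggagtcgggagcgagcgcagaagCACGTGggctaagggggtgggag
Sema3d, chr5:12382916-12383165, plus strand: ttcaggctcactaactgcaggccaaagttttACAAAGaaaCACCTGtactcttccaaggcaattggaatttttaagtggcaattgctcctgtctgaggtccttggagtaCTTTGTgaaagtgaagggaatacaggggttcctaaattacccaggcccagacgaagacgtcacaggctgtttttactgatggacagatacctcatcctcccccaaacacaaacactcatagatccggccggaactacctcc
Sema6d has a second RefSeq start at 124653581, whose window is not printed. That window of 300 bases held 46.7% G and C with 1 match to CACCTG and 1 to ACAAAG. The windows of Slit3 and Unc5c overlap their annotated genes and are not printed, nor is one for Ntn1. The Epha8 window held 84.0% G and C and 46 CpG pairs, the Sema6d window 52.4% and 9, and the Sema3d window 46.8% and 4. Over the windows of 300 bases, which end 50 bases after the start, the median was 65.7% G and C with 23.5 CpG in the 16 promoters of members higher in the mesenchymal-like lines, 63.7% with 15 in the 13 promoters of members lower there, and 52.7% with 7 in all 32851 promoters. CACCTG, searched on both strands, was present in 6.2% of the first group, 30.8% of the second and 20.2% of all promoters. ACAAAG was present in 12.5%, 30.8% and 18.7%, CACGTG in 6.2%, 7.7% and 7.2%, and CATGTG, the letters of the MITF M-box, in 0.0%, 7.7% and 14.2%. These shares rest on few promoters and are a description.

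The first comparison asked which guidance genes follow the phenotype, as the mean of 4C and 4C11- against the mean of melan-a and 4C11+. Of the 43 members, 16 were higher in the mesenchymal-like lines, while 14.3% of all genes were called in that direction, and 12 were lower, against 15.3% of all genes. The median absolute difference was 1.96 log2 units for the members and 0.50 for all genes. The families split. Both netrins, 5 of 7 ephrins and 4 of 7 Eph receptors were higher in the mesenchymal-like lines, with Slit3, whereas semaphorins went both ways (2 higher and 5 lower of 14) and 3 of 7 plexins were lower with 1 higher. Neither neuropilin passed the test.

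**Figure D1:**
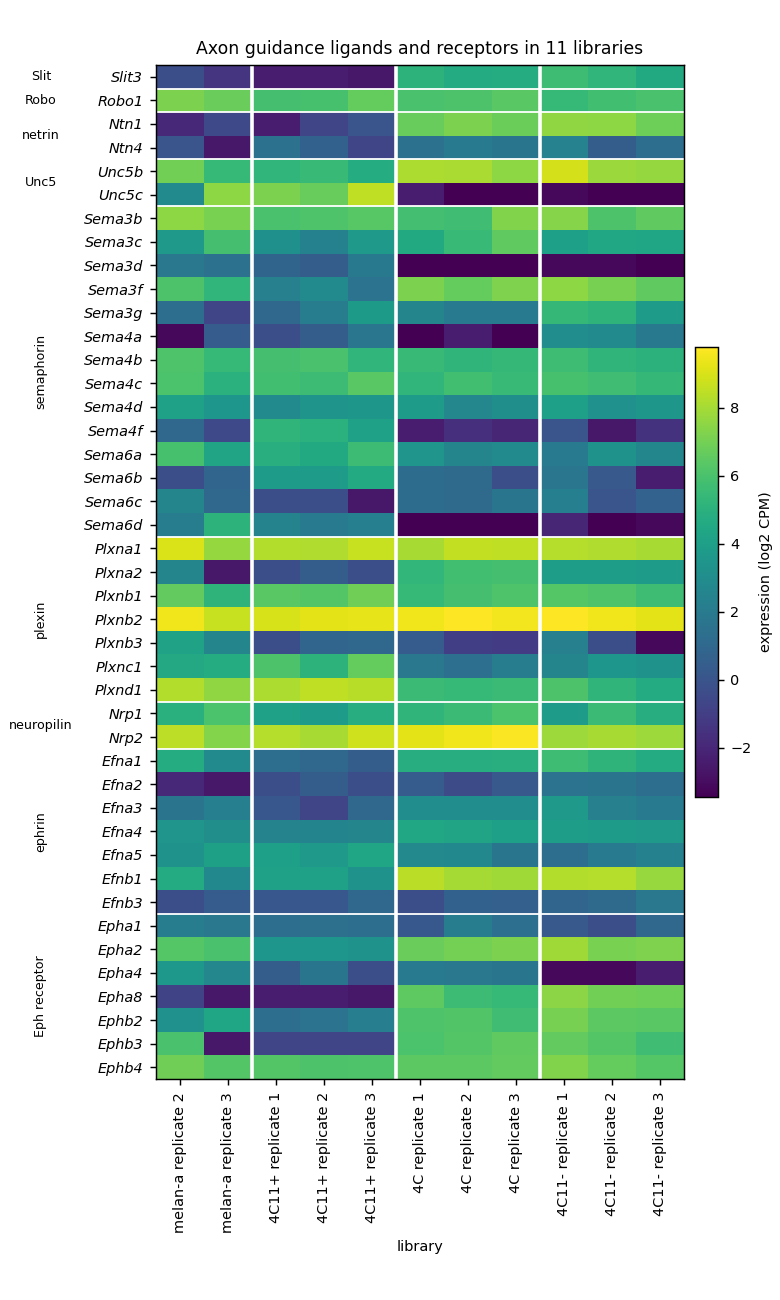
Heat map of the 43 members (rows, grouped by family) in the 11 libraries (columns, grouped by line), with colour for log2 CPM. The 3 libraries of 4C and the 3 of 4C11- share a pattern in which Slit3, Ntn1, Efnb1 and Epha8 are high and Unc5c, Sema3d and Sema6d are at the bottom of the scale, and the melan-a libraries differ from each other in Ephb3 and Plxna2.

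**Figure D2:**
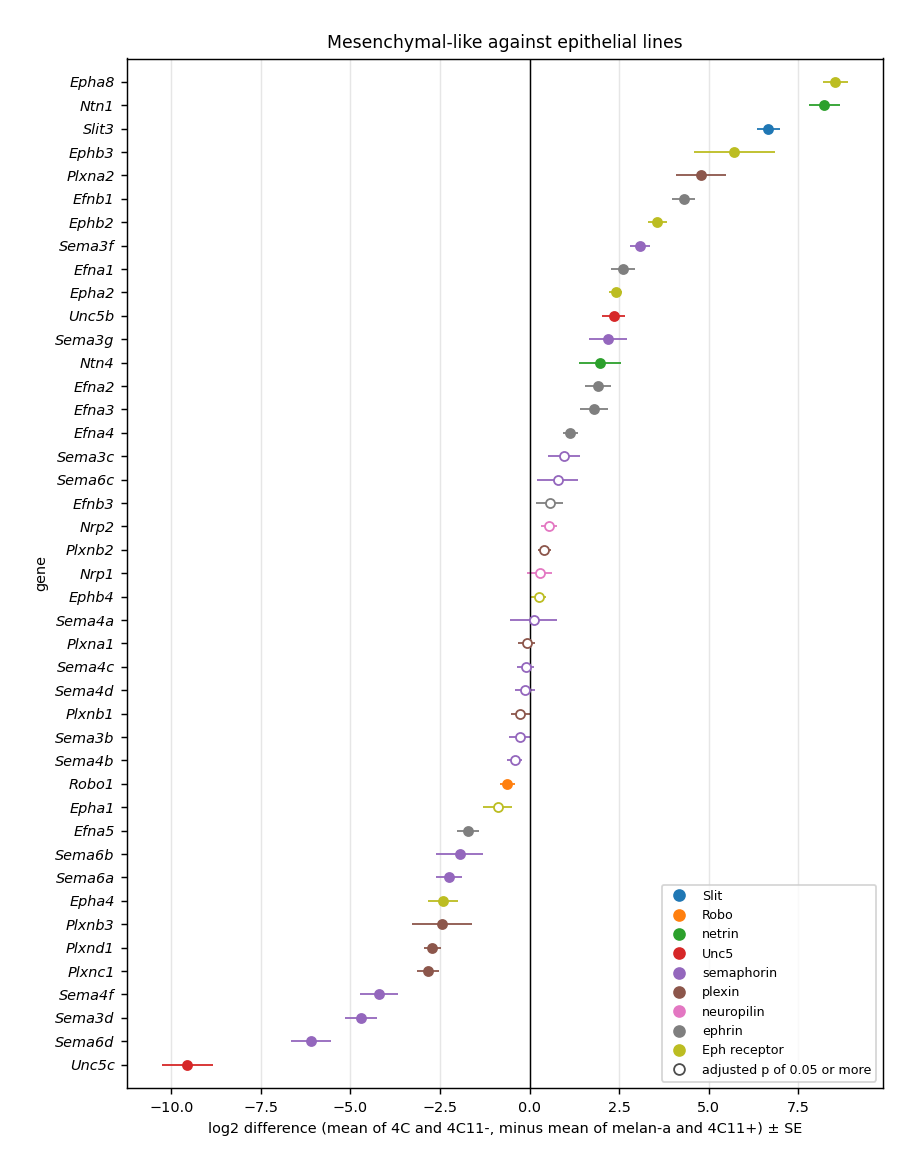
Log2 difference between the mesenchymal-like and epithelial lines for each member, with the standard error as a bar and the family as colour. The 28 filled points passed an adjusted p of 0.05, from Unc5c at -9.56 to Epha8 at 8.54, and the 15 open points did not.

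Slit3 was a mesenchymal-like transcript in these lines, and Robo1, its receptor family's 1 measured member, was present in all of them. Slit3 lies on chromosome 11 (35121224 to 35708507, plus strand, GRCm38) and is a hub that the study chose on these samples, as are Robo1 and Unc5c, so their behaviour is not independent evidence. Its level was 5.09, 4.68 and 4.75 in 4C and 5.68, 5.25 and 4.59 in 4C11-. In melan-a it was -0.25 and -1.42, which are 3 reads and 1 read, and in 4C11+ it was -2.44, -2.44 and -2.58, which are 0 reads in each library. The groups did not overlap, and Slit3 was at least 36.5-fold higher in the mesenchymal-like lines (log2 bound 5.19, adjusted p = 3.41e-08). Robo1 (chromosome 16, 72308306 to 73046095, plus strand) was 7.15 and 6.77 in melan-a, 6.0, 6.08 and 6.38 in 4C, 5.41, 5.76 and 5.97 in 4C11-, and 5.88, 5.94 and 6.63 in 4C11+. The means ran from 6.96 ± 0.27 (SD, n = 2) in melan-a to 5.72 ± 0.28 (SD, n = 3) in 4C11-, and 4C and 4C11+ had the same mean of 6.15. Robo1 was lower in the mesenchymal-like lines by a small amount (log2 difference -0.62 ± 0.20 SE, adjusted p = 0.0331), with overlapping libraries. This call was lost under 6 of 18 alternatives, which included leaving out melan-a replicate 2, 4C replicate 1 or 2, 4C11- replicate 2 or 4C11+ replicate 3, and the adjusted p ranged from 0.0304 to 0.108. Slit1, Slit2 and Robo2 to Robo4 were not analysed here.

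Netrin and Unc5 genes differed between phenotypes. Ntn1, which encodes the secreted netrin-1, lies on chromosome 11 (68209364 to 68400823, minus strand). It was 6.70, 7.18 and 6.80 in 4C and 7.57, 7.54 and 6.85 in 4C11-. It was -1.90 and -0.54 in melan-a (1 and 3 reads) and -2.44, -0.70 and 0.06 in 4C11+ (0, 1 and 4 reads). The difference between phenotypes was 8.23 ± 0.43 (SE, adjusted p = 6.4e-08), and Ntn1 was at least 156-fold higher in 4C than in melan-a. Ntn4, a netrin that also binds laminin, stayed low in every line, at 1.47, 2.07 and 1.68 in 4C and 2.41, 0.44 and 1.35 in 4C11-. It was 0.06 and -2.58 in melan-a and 1.48, 0.67 and -0.70 in 4C11+, so the libraries overlapped, and its difference of 1.96 ± 0.59 (adjusted p = 0.0251) was lost without melan-a replicate 3, without 4C replicate 2 or without 4C11+ replicate 3 (adjusted p up to 0.115).

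The 2 measured Unc5 receptors went in opposite directions. Unc5b was higher in the mesenchymal-like lines, with means of 7.93 ± 0.34 in 4C and 8.14 ± 0.68 in 4C11- (SD, n = 3 each), 6.20 ± 1.10 in melan-a (SD, n = 2) and 5.17 ± 0.40 in 4C11+ (SD, n = 3). Its difference was 2.35 ± 0.32 (adjusted p = 0.000171). Unc5c (chromosome 3, 141465216 to 141834924, plus strand) was -2.44, -3.44 and -3.44 in 4C and -3.15, -3.44 and -3.44 in 4C11-, which is at most 1 read. It was 7.16, 6.73 and 8.53 in 4C11+ and 2.85 and 7.54 in melan-a. Unc5c was thus at least 215-fold lower in the mesenchymal-like lines (log2 bound -7.75, adjusted p = 1.11e-06), and the fitted difference of -9.56 became -10.73 without melan-a replicate 2 and -8.39 without replicate 3.

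**Figure D3:**
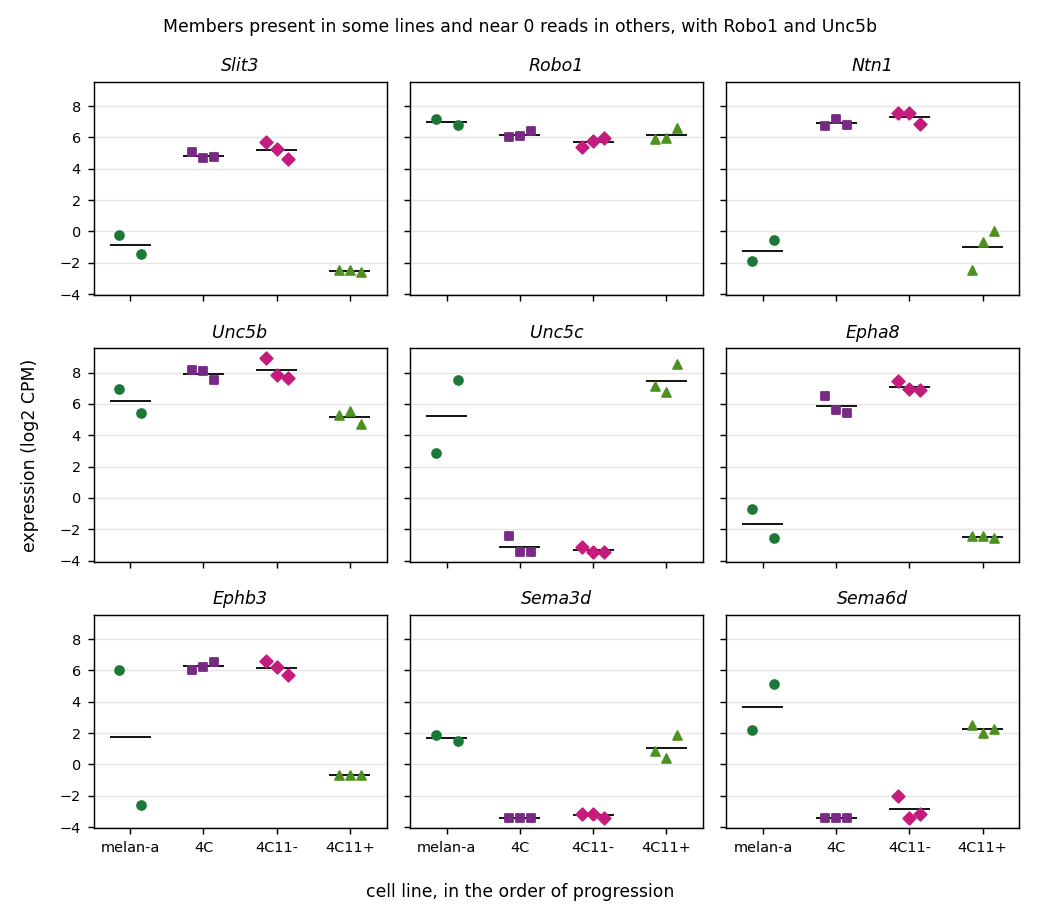
Log2 CPM of 9 members in each library, by line in the order of progression, with a line at the mean. Slit3, Ntn1 and Epha8 are high in 4C and 4C11- and near the floor elsewhere. Unc5c, Sema3d and Sema6d are near the floor in 4C and 4C11- and above it elsewhere, with Sema3d low in every line. Robo1 differs little, and Ephb3 and Unc5c are far apart in the 2 melan-a libraries.

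Among the secreted class 3 semaphorins, Sema3f and Sema3d were opposite. Sema3f, a repellent that signals through Nrp2, was 7.19, 6.63 and 7.20 in 4C and 7.54, 7.08 and 6.57 in 4C11-. It was 6.07 and 5.24 in melan-a and 2.32, 2.86 and 1.61 in 4C11+. All mesenchymal-like libraries were above all epithelial ones (difference 3.08 ± 0.28 SE, adjusted p = 6.33e-06), and 4C11+ was the line that was low. Sema3d was 1.87 and 1.48 in melan-a and 0.84, 0.44 and 1.90 in 4C11+, against at most 1 read in any library of 4C and 4C11- (levels of -3.44 to -3.15). It was at least 6.89-fold lower in the mesenchymal-like lines (log2 bound -2.79, adjusted p = 7.33e-06). Sema3g was higher in the mesenchymal-like lines (2.19 ± 0.53, adjusted p = 0.00871), with its highest mean in 4C11- (4.80 ± 0.80, SD, n = 3) and overlapping libraries. Sema3b, with line means from 6.15 to 7.32, and Sema3c, with means from 3.10 to 5.55, did not pass (adjusted p = 0.584 and 0.129). Sema3b lies 72.3 kb from Sema3f on chromosome 9, and its difference was -0.26.

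The membrane-bound semaphorins that passed in the phenotype comparison, Sema4f, Sema6a, Sema6b and Sema6d, were lower in the mesenchymal-like lines. Sema4a and Sema6c did not pass there (adjusted p = 0.921 and 0.346). Sema6d was -3.44 in each 4C library and -2.01, -3.44 and -3.15 in 4C11-, which is at most 1 read. It was 2.17 and 5.12 in melan-a and 2.49, 2.01 and 2.28 in 4C11+, and it was at least 20.6-fold lower in the mesenchymal-like lines (log2 bound -4.37, adjusted p = 5.5e-06). The fitted difference of -6.10 was -6.84 without melan-a replicate 2 and -5.37 without replicate 3. Sema6a had means of 5.10 ± 1.17 in melan-a (SD, n = 2) and 5.03 ± 0.54 in 4C11+ (SD, n = 3), against 2.97 ± 0.43 and 2.67 ± 0.63 in 4C and 4C11- (SD, n = 3 each), without overlap (difference -2.24 ± 0.36 SE, adjusted p = 0.000631). Sema4f and Sema6b were high in 4C11+. Sema4f was 5.21, 5.02 and 4.15 in 4C11+, 1.05 and -0.54 in melan-a, -2.44, -1.61 and -2.01 in 4C, and 0.06, -2.58 and -1.50 in 4C11-. Sema6b was 3.88, 3.84 and 4.63 in 4C11+, -0.25 and 0.89 in melan-a, 1.21, 1.15 and -0.25 in 4C, and 1.73, 0.24 and -2.44 in 4C11-. In both genes every 4C11+ library was above every other library, so that their phenotype differences (-4.20 ± 0.53 and -1.95 ± 0.66, adjusted p = 8.44e-05 and 0.0445) came with overlapping groups, and that of Sema6b was lost under 10 of 18 alternatives. Sema4b, Sema4c and Sema4d were measured in all lines at means of 3.21 to 5.91, and their differences were between -0.42 and -0.11 (adjusted p = 0.173 to 0.774).

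The plexins, receptors of semaphorins, held both steady members and some of the most changed. Plxnb2 had line means of 9.10 to 9.61 and Plxna1 of 8.19 to 8.37, with differences of 0.41 ± 0.18 and -0.08 ± 0.23 (SE, adjusted p = 0.102 and 0.836). Plxnb2 was also the highest plexin per kilobase of exon in every line, at 6.16 to 6.66 log2 CPM per kb. Plxnd1, the receptor of Sema3e, was 8.28 and 7.61 in melan-a and 8.16, 8.51 and 8.35 in 4C11+. It was 5.57, 5.40 and 5.56 in 4C and 6.09, 5.23 and 4.68 in 4C11-. The groups did not overlap, and the difference was -2.72 ± 0.24 (adjusted p = 5.22e-06). Plxnc1, the receptor of Sema7a, was 4.55 and 4.74 in melan-a and 6.07, 5.12 and 6.66 in 4C11+, against 1.84, 1.39 and 2.15 in 4C and 2.60, 3.53 and 3.33 in 4C11- (difference -2.83 ± 0.31, adjusted p = 2.98e-05). Sema3e and Sema7a themselves were not analysed here.

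Plxna2 was the plexin that was higher in the mesenchymal-like lines. It was 5.30, 5.80 and 5.86 in 4C and 3.93, 3.90 and 3.86 in 4C11-, against -0.24, 0.44 and -0.24 in 4C11+ and 2.58 and -2.58 in melan-a. Its difference of 4.78 ± 0.70 (adjusted p = 0.0003) was 6.07 without melan-a replicate 2 and 3.49 without replicate 3. Plxnb3 was lower (-2.44 ± 0.83, adjusted p = 0.0456), but its libraries overlapped and the call was lost under 10 of 17 alternatives. The neuropilins, co-receptors of class 3 semaphorins, did not pass for phenotype. Nrp2 was highest in 4C, at 9.23, 9.48 and 9.68. It was 8.46 and 7.35 in melan-a, 7.86, 8.03 and 7.84 in 4C11-, and 8.30, 8.04 and 8.83 in 4C11+, so 4C did not overlap any other line. Nrp1 had means of 4.27 to 5.59 in overlapping libraries.

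Of the 7 measured ephrins, 5 were higher in the mesenchymal-like lines, against 14.3% of all genes. Among them, the libraries of the phenotypes overlapped in Efna1, Efna2 and Efna3 and not in Efna4 and Efnb1. Efna1 and Efna3 did not pass between 4C and melan-a (adjusted p = 0.236 and 0.275). The call of Efna2 between 4C and melan-a was lost under 3 of 18 alternatives, which included leaving out melan-a replicate 3. That of Efna4 was lost under 11 of 19, which included leaving out either melan-a library or any single 4C library. Efnb1, a transmembrane ephrin on the X chromosome (99136130 to 99148991, plus strand), was 8.40, 8.02 and 7.88 in 4C and 8.26, 8.32 and 7.72 in 4C11-. It was 4.71 and 2.75 in melan-a and 4.12, 4.15 and 3.32 in 4C11+. Every mesenchymal-like library was above every epithelial one, by a fitted 19.7-fold (4.30 ± 0.33 SE on the log2 scale, adjusted p = 1.3e-06), and Efnb1 was the highest ephrin per kilobase of exon in 4C and 4C11- (6.31 log2 CPM per kb in both). Efna1 was 4.81, 4.82 and 4.87 in 4C, 5.69, 5.14 and 4.71 in 4C11-, 4.77 and 2.91 in melan-a, and 1.33, 1.04 and 0.48 in 4C11+. It was higher in the mesenchymal-like lines (2.61 ± 0.34, adjusted p = 0.000118), but melan-a replicate 2 lay within their range. Efna2 was low throughout, at 0.40, -0.42 and 0.24 in 4C, 1.57, 1.65 and 1.35 in 4C11-, -1.90 and -2.58 in melan-a (1 and 0 reads), and -0.24, 0.44 and -0.24 in 4C11+ (1.92 ± 0.36, adjusted p = 0.00185). Efna5 was the ephrin that was lower, with means of 2.41 ± 0.63 and 1.89 ± 0.51 in 4C and 4C11- against 3.72 ± 0.49 and 4.02 ± 0.36 in melan-a and 4C11+ (SD; difference -1.72 ± 0.32 SE, adjusted p = 0.00151). Efnb3, at means of 0.07 to 1.29, did not pass (adjusted p = 0.306).

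Some of the ephrins and Eph receptors that were higher together are neighbours in the genome. Efna1, Efna3 and Efna4 follow each other on chromosome 3 (from 89271733 to 89338028), with 32.8 and 10.4 kb between them and 0 other protein-coding genes in the gaps of the annotation used. Their differences were 2.61, 1.80 ± 0.40 and 1.13 ± 0.21 (SE, adjusted p = 0.000118, 0.00532 and 0.00138). Ephb2 and Epha8 lie 93.4 kb apart on chromosome 4, with C1qa, C1qb and C1qc between them, none of which had a value here, and both were higher. These 2 groups and the Sema3b and Sema3f pair were the only members within 300 kb of each other.

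Among the Eph receptors, Epha8 had the largest fitted difference of the 16 higher members. Epha8 (chromosome 4, 136929419 to 136956816, minus strand) was 6.50, 5.61 and 5.43 in 4C and 7.46, 6.95 and 6.87 in 4C11-. It was -0.72 and -2.58 in melan-a (2 and 0 reads) and -2.44, -2.44 and -2.58 in 4C11+ (0 reads each), and it was at least 101-fold higher in the mesenchymal-like lines (log2 bound 6.65, adjusted p = 1.41e-08). Ephb2, a receptor of B ephrins, was 6.15, 6.17 and 5.73 in 4C, 7.06, 6.47 and 6.38 in 4C11-, 3.23 and 4.36 in melan-a, and 1.33, 1.58 and 2.23 in 4C11+. The phenotypes did not overlap for Ephb2 (3.57 ± 0.27, adjusted p = 1.25e-06). Ephb3 was 6.03, 6.24 and 6.55 in 4C and 6.58, 6.24 and 5.73 in 4C11-, against -0.70 in each 4C11+ library. In melan-a it was 6.01 in replicate 2, within the mesenchymal-like range, and -2.58 in replicate 3, at 0 reads. Its difference of 5.72 ± 1.12 (adjusted p = 0.00231) was 7.87 without melan-a replicate 2 and 3.57 without replicate 3.

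Epha2, a receptor of A ephrins, was 6.77, 7.04 and 7.18 in 4C and 7.87, 7.11 and 7.22 in 4C11-, against 6.31 and 6.0 in melan-a and 3.53, 3.48 and 3.34 in 4C11+ (difference 2.40 ± 0.18 SE, adjusted p = 1.43e-06). Epha4, which binds ephrins of both classes, was 3.60 and 2.67 in melan-a and 2.08, 1.85 and 1.68 in 4C. It was -3.15, -3.15 and -2.44 in 4C11-, at most 2 reads, and 0.44, 1.68 and -0.24 in 4C11+. The phenotype difference of Epha4 was -2.41 ± 0.42 (adjusted p = 0.0011) with overlapping libraries, since 4C11- alone was near absent. Ephb4, with line means of 6.15 to 6.73, and Epha1, with means of 0.36 to 2.00, did not pass (adjusted p = 0.384 and 0.123).

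The step from melan-a to 4C is the loss of the epithelial morphology before malignancy. In it, 12 members were higher in 4C, against 7.64% of all genes, and 6 were lower, against 7.55%. Ntn1, Epha8, Slit3, Plxna2, Efnb1, Ntn4, Efna2, Ephb2, Unc5b, Nrp2, Sema3f and Efna4 were higher, and Unc5c, Sema6d, Sema3d, Plxnc1, Plxnd1 and Sema6a were lower. The bounds were 75.5-fold for Epha8, 37.6-fold for Slit3, 1.38-fold for Efna2, and, for the lower genes, 87.8-fold for Unc5c, 29.9-fold for Sema6d and 7.67-fold for Sema3d. The bounds of the lower genes use the mean of the 2 melan-a libraries, which were far apart in Unc5c (2.85 and 7.54) and Sema6d (2.17 and 5.12). The fitted difference of Unc5c was -10.65 without melan-a replicate 2 and -5.96 without replicate 3. That of Sema6d was -8.56 and -5.61, and that of Plxna2, 5.65 with both libraries, was 8.24 and 3.07. Efnb1 was 4.37 ± 0.49 higher (SE on the log2 scale, adjusted p = 6.91e-05), and Plxnd1 was 2.43 lower. The count of higher members fell to 6 without melan-a replicate 3, and the 6 that were lost there were Efna2, Efna4, Nrp2, Ntn4, Sema3f and Unc5b. The calls of Efna4 and Sema6a were lost without melan-a replicate 2. Over all alternatives, Efna4 was lost under 11 of 19, Sema3f under 10 of 19 and Ntn4 under 7 of 18. Unc5b was lost under 5 of 19, Sema6a under 4 of 19, Efna2 under 3 of 18 and Nrp2 under 1 of 19. Ephb3 did not pass (4.56, adjusted p = 0.0927), and its difference was 8.86 without melan-a replicate 2 and 0.26 without replicate 3. Efna1, at 1.0 (adjusted p = 0.236), was 1.92 without replicate 2 and 0.07 without replicate 3.

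The step from 4C to 4C11-, from a pre-malignant to a tumorigenic mesenchymal-like line, moved few guidance genes. Sema4a was the 1 member that was higher (1.26% of all genes were called higher), and Epha4 and Nrp2 were the 2 that were lower (0.406% of all genes). Sema4a, a membrane-bound semaphorin, was 3.06, 2.86 and 1.91 in 4C11-, against -3.44, -2.44 and -3.44 in 4C (at most 1 read), -3.15 and 0.40 in melan-a, and -0.24, 0.44 and 1.77 in 4C11+. It was at least 14.6-fold higher in 4C11- than in 4C (log2 bound 3.87, adjusted p = 0.00635). Epha4 was at least 10.9-fold lower (log2 bound -3.44, adjusted p = 0.000988). Nrp2 was 1.55 lower on the log2 scale (SE 0.29, adjusted p = 0.0203), a call that was lost without 4C replicate 2 or 3 or without any 1 of the 4C11- libraries (adjusted p up to 0.0994). The median absolute difference of the members was 0.40, against 0.37 for all genes.

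The step from 4C11- to 4C11+, from the non-metastatic to the metastatic melanoma line, changed 25 of the 43 members. In 4C11+, 10 members were higher, against 15.6% of all genes, and 15 were lower, against 15.4%. The median absolute difference was 2.36 for the members and 0.70 for all genes. Unc5c, Sema4f, Sema6d, Sema3d, Sema6b, Epha4, Plxnd1, Plxnc1, Sema6a and Efna5 were higher, and Unc5c was at least 528-fold higher (adjusted p = 6.6e-06). The lower members were Slit3, Ntn1, Unc5b, Sema3f, Sema3g, Plxna2, 5 ephrins (Efna1, Efna2, Efna3, Efna4 and Efnb1) and 4 Eph receptors (Epha2, Epha8, Ephb2 and Ephb3). Epha8 was at least 134-fold, Ephb3 at least 71.4-fold and Slit3 at least 35.5-fold lower. Sema3f was 27.8-fold, Ephb2 30.4-fold, Efna1 18.8-fold and Epha2 15.4-fold lower in the fit (adjusted p = 2.59e-06, 1.5e-06, 3.27e-05 and 4.19e-07), with no overlap between the lines. Of the 25 calls, 23 were retained under all alternatives in which the gene was tested, and those of Efna2 and Sema3g were not. Epha4, Sema3d, Sema4f and Sema6d, among the 23, were not tested with low values left out.

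The 2 pairs of lines that differ in phenotype, 4C against melan-a and 4C11- against 4C11+, share no library. They were fitted together, so their tests share an estimate of the spread. The differences had the same sign in both pairs in 34 of the 43 members (79.1%), as did those of 61.1% of all genes. Of the members, 16 were called in both pairs (37.2%, against 9.6% of all genes), each in the same direction. The count was 17 without melan-a replicate 2, 16 of them in the same direction, and 12 without replicate 3 (27.9%, against 8.3% of all genes), where Efna2, Efna4, Sema3f and Unc5b were no longer called in both. With both libraries, the 16 were Slit3, Ntn1, Unc5b, Unc5c, Sema3d, Sema3f, Sema6a, Sema6d, Plxna2, Plxnc1, Plxnd1, Efna2, Efna4, Efnb1, Epha8 and Ephb2. Of these, Efna2, Efna4, Sema3f, Sema6a and Unc5b lost their call in 4C against melan-a when only the lines compared were fitted. The sizes were close in some of the 16 and apart in others. Efnb1 differed by 4.37 and 4.24, Ntn1 by 8.11 and 8.34 and Plxnc1 by -2.86 and -2.80 in the fits of the 2 pairs. Epha8 differed by 7.5 and 9.58, Slit3 by 5.67 and 7.66, Sema3f by 1.36 and 4.8, and Sema6d by -7.08 and -5.12. The first value of Efnb1 was 5.35 without melan-a replicate 2 and 3.38 without replicate 3. Ntn1 was near absent in melan-a, so its first value is a fit at the floor.

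**Figure D4:**
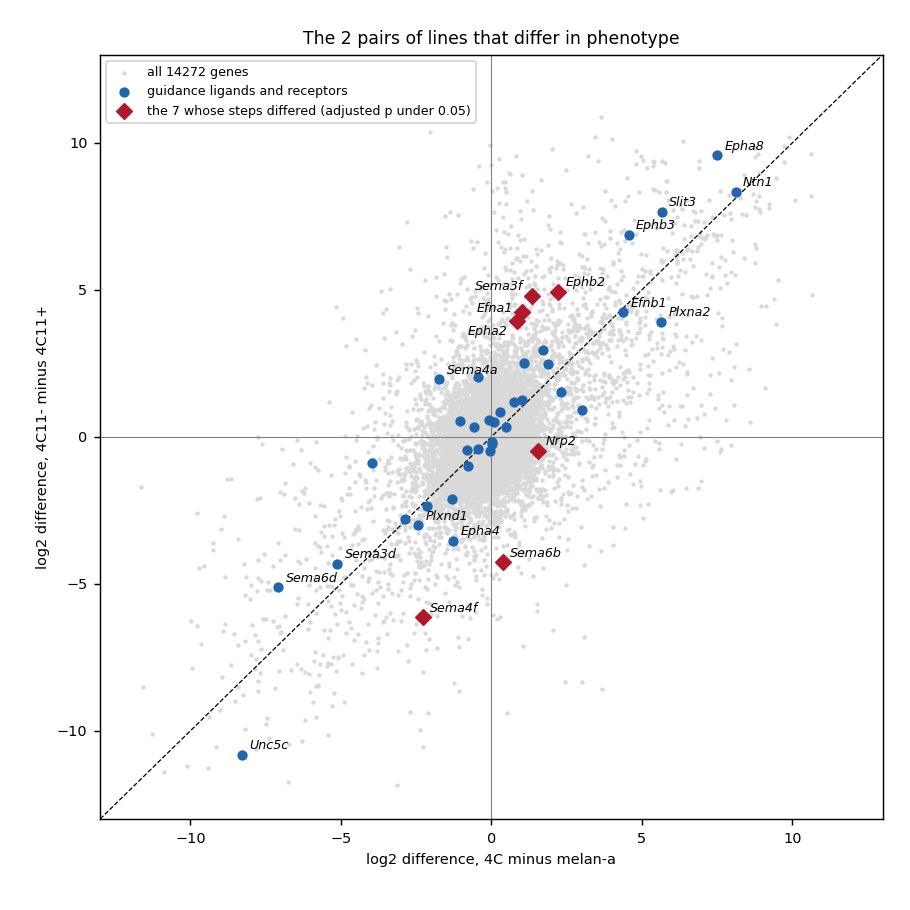
Log2 difference of 4C minus melan-a (x axis) and of 4C11- minus 4C11+ (y axis) for all 14272 genes in grey and the 43 members in colour, with a dashed line of equal difference. Slit3, Ntn1, Epha8 and Efnb1 lie in the upper right and Unc5c, Sema6d and Sema3d in the lower left, and the 7 red members, whose 2 differences were not equal in the test, include Sema3f, Efna1, Epha2 and Ephb2 above the line.

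The size of the 2 differences was then compared gene by gene. The difference of the pairs, (4C minus melan-a) minus (4C11- minus 4C11+), was above 0 for 3 members (Nrp2, Sema4f and Sema6b; 3.95% of all genes) and below 0 for 4 (Efna1, Epha2, Ephb2 and Sema3f; 5.88% of all genes). Epha2 differed by 0.84 between 4C and melan-a (adjusted p = 0.0609) and was 3.95 higher in 4C11- than in 4C11+. The differences of the 2 pairs were 1.36 and 4.80 for Sema3f, 2.22 and 4.93 for Ephb2, and 1.0 (adjusted p = 0.236) and 4.23 for Efna1. In these 4 genes 4C11+ was below melan-a. Nrp2 was 1.56 higher in 4C than in melan-a, and the other pair differed by -0.48 (adjusted p = 0.234). Sema6b and Sema4f rested on their high level in 4C11+.

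The ends of the series, 4C11+ and melan-a, have the same morphology and were compared directly. In 4C11+, 3 members were higher (8.39% of all genes), namely Sema4f (4.54 ± 0.78 SE, adjusted p = 0.00291), Sema6b (3.80 ± 0.99, adjusted p = 0.0233) and Efna2 (at least 1.31-fold, adjusted p = 0.0179). The calls of Sema6b and Efna2 were lost under 4 of 19 and 4 of 18 alternatives (adjusted p up to 0.156 and 0.0813). Efna2 had 2, 4 and 3 reads in 4C11+ and 1 and 0 in melan-a, so its bound lies near the floor. The 7 lower members (7.52% of all genes) were Sema3f (10.5-fold, adjusted p = 0.000305), Efna1 (7.42-fold, adjusted p = 0.00321), Epha2 (6.52-fold, adjusted p = 6.88e-05), Epha4, Ephb2, Sema6c and Slit3. Sema6c was 2.58 and 1.04 in melan-a, -0.24, -0.24 and -2.58 in 4C11+ (at most 2 reads), 1.21, 1.15 and 1.68 in 4C, and 2.26, 0.06 and 0.70 in 4C11-. It was at least 3.45-fold lower in 4C11+ than in melan-a, but the call was lost under 11 of 18 alternatives. The call of Epha4 was lost under 3 of 18, including the fit without melan-a replicate 2, and that of Ephb2 under 1 of 19. Slit3 had at most 3 reads in every library of both lines, so no fold is given, and its call was lost under 9 of 19 alternatives (adjusted p up to 0.43). The count of lower members was 4 without 4C11+ replicate 1 and 11 without melan-a replicate 3. Epha2, Efna1, Sema3f and Sema4f passed under every alternative in which they were tested, and Sema4f was not tested with low values left out.

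Set side by side, the ligands and receptors at hand differed by line. The members near absent in every library of a line were Efna2, Epha8, Ntn1 and Slit3 in melan-a, Sema3d, Sema4a, Sema4f, Sema6d and Unc5c in 4C, Epha4, Sema3d, Sema6d and Unc5c in 4C11-, and Epha8, Ephb3, Sema6c and Slit3 in 4C11+. Per kilobase of exon, 4C and 4C11- held Ntn1 (4.24 and 4.67 log2 CPM per kb) with Unc5b (5.28 and 5.49). Slit3 (2.24 and 2.57) was held with Robo1 (2.11 and 1.67), and Sema3f (4.63 and 4.68) with Nrp2 (5.90 and 4.34). Efnb1 (6.31 in both) was held with Ephb2 (2.36 and 2.98) and Ephb3 (3.54 and 3.45). Ephb4 was at 4.28 and 4.52 in these lines, and Efnb2 was not analysed here. In 4C11+, the receptors Robo1 (2.11), Unc5b (2.53), Unc5c (3.22) and Nrp2 (4.82) were measured at such levels, while Ntn1 had at most 4 reads and Slit3 0. Melan-a, the other epithelial line, also held Robo1 (2.92), Unc5b (3.55), Unc5c (0.94) and Nrp2 (4.34), with at most 3 reads of Ntn1 and Slit3. The ligands Sema3f and Efnb1 were measured in both epithelial lines as well, at 3.28 and 1.94 in melan-a and -0.11 and 2.08 in 4C11+. The highest semaphorin per kilobase was Sema3b in melan-a and 4C11+ (5.07 and 3.89) and Sema3f in 4C and 4C11-. The highest Eph receptor was Ephb4 in melan-a and 4C11+ (4.36 and 3.93) and Epha2 in 4C and 4C11- (4.77 and 5.17).

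The 4 lists of other genes of these pathways were described in the same phenotype comparison. Of 12 measured receptors, adhesion molecules and guidance cues outside the families above, 7 were lower in the mesenchymal-like lines (58.3%, against 15.3% of all genes) and 1 was higher (8.3%, against 14.3%). The lower genes included Nrcam and L1cam, adhesion molecules that act as semaphorin co-receptors in neurons, and Flrt3, an Unc5 ligand. Nrcam was 6.21 and 8.09 in melan-a and 7.84, 7.61 and 8.06 in 4C11+, with at most 2 reads in 4C and 4C11-. Flrt3 was 4.70 and 4.60 in melan-a and 1.33, 1.32 and 2.89 in 4C11+, with at most 1 read in 4C and 4C11-. Met, the hepatocyte growth factor receptor, which also associates with B-class plexins, was lower as well (-2.93 ± 0.22 SE, adjusted p = 9.92e-07).

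Of 20 measured Slit, Robo and netrin effectors, 6 were higher (30.0%, against 14.3% of all genes) and 5 lower (25.0%, against 15.3%) in the mesenchymal-like lines. Srgap3, a GTPase-activating protein of the Slit-Robo pathway, was higher (4.18 ± 0.41, adjusted p = 1.13e-05). Pak1, a kinase downstream of Rac and Cdc42, was 2.26 to 3.82 in 4C and 4C11-, and it had 0 reads in every library of melan-a and 4C11+ (adjusted p = 7.97e-07). The kinase Fyn was lower (-2.15 ± 0.22, adjusted p = 1.71e-05). Of 25 measured semaphorin and plexin effectors, 5 were higher and 9 lower, against 14.3% and 15.3% of all genes. Dpysl3, a collapsin response mediator, was 5.63, 5.59 and 5.82 in 4C11+ and 0.40 and 4.61 in melan-a, with 0 reads in 4C and 4C11-. Mical2, of a family of actin-oxidizing enzymes, was higher (3.74 ± 0.47, adjusted p = 8.56e-05). Of 17 measured Eph and ephrin effectors, 2 were higher (11.8%, against 14.3% of all genes) and 3 lower (17.6%, against 15.3%). Tiam1, a Rac exchange factor, was higher (1.0 ± 0.14, adjusted p = 0.000207), with 4.68, 4.87 and 4.87 in 4C11+ as its lowest libraries. Chn2, a Rac GTPase-activating protein, was 4.81, 5.12 and 4.96 in 4C11+, -0.72 and 0.75 in melan-a, and at most 2 reads in 4C and 4C11- (adjusted p = 3.6e-06). The median differences of the 4 lists were -0.79, -0.09, -0.39 and -0.14 in this order, against -0.09 for all genes.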

How the data were processed

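Total RNA of 4 murine lines was sequenced from stranded, ribosomal RNA depleted libraries, of which 11 were used. According to the submitters' notes and the methods, reads were trimmed with Trimmomatic, aligned with STAR to GRCm38, assigned to genes with Rsubread and normalized with voom after removal of genes that did not reach 1 CPM in 4 or more libraries. Their versions are not given in the sources used here. The values the authors deposited are on the log2 scale (log2 CPM), and the libraries share 1 highest value of 13.69, as after a quantile normalization, a step the methods do not name.

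The 43 members were found by symbol, and 24 of the 14272 genes matched no symbol. Members, gene lists and motifs were chosen with earlier results of these data known. All genes were fitted with limma 3.58.1 in R 4.3.3 (a mean for each line, 11 libraries, mean-variance trend, two-sided, Benjamini-Hochberg over all genes, adjusted p under 0.05), and the fit was tested on simulated data. Tables and figures were made in Python 3.11.15. Fold changes are 2 to the power of the fitted difference. Reads per value were counted from the order of the distinct low values of a library, and depth from the step at 40 reads. These cover counting error only. Positions and exon lengths are from GENCODE M21 (GRCm38). Values in each library are given for the 3 hubs of the study, for up to 12 members with the largest difference without overlap in each comparison, and for those whose phenotype steps differed. Up to 5 genes of an effector list were named. Alternatives covered the normalization, the low values, the variance model, the lines in the fit, the replicate number as a block, and each library left out in turn. A melan-a replicate 1 was not used. The p-values measure the spread between replicate libraries of 1 line.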

Additional observations from a re-analysis of the deposited data

Results flagged for a closer look

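The change between the 2 pairs of lines that differ in phenotype was not the same size in 7 members, by the limma test of (4C minus melan-a) minus (4C11- minus 4C11+). The value was -3.10 for Epha2 (SE 0.37, adjusted p = 0.000384), -3.44 for Sema3f (SE 0.56, adjusted p = 0.00314), -2.71 for Ephb2 (SE 0.54, adjusted p = 0.00961) and -3.24 for Efna1 (SE 0.68, adjusted p = 0.0127). In these 4 genes all 3 libraries of 4C11+ were below both libraries of melan-a, and all 4 calls were kept under every alternative run. The value was 2.04 for Nrp2 (SE 0.43, adjusted p = 0.0135), which was also called under every alternative. It was 3.86 for Sema4f (SE 1.05, adjusted p = 0.0407) and 4.65 for Sema6b (SE 1.32, adjusted p = 0.0472), and these calls were lost under 9 of 17 and 10 of 18 alternatives. Melan-a was the only line grown with PMA and had 2 libraries, so the medium and the line cannot be told apart in this comparison.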

How the results depend on the processing

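No call of a member changed direction under any alternative. With genes of a mean under 1 log2 CPM left out, where fewer genes are tested, 7 members instead of 12 were lower in the mesenchymal-like lines, 0 instead of 1 higher and 1 instead of 2 lower in 4C11- against 4C, 6 instead of 10 higher in 4C11+ against 4C11-, and 1 instead of 3 higher in 4C11+ against melan-a. With only the lines compared in the fit, which has fewer libraries, 7 instead of 12 were higher in 4C against melan-a and 2 instead of 1 higher in 4C11- against 4C. Without the mean-variance trend, 1 instead of 2 was lower in 4C11- against 4C, and the cause was not tested.

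Without 1 library at a time, 15 to 18 members were higher and 9 to 12 lower in the mesenchymal-like lines. In 4C against melan-a the counts were 6 (without melan-a replicate 3) to 14 (without replicate 2) higher and 5 to 8 lower, in 4C11- against 4C 1 higher and 1 to 3 lower, and in 4C11+ against 4C11- 10 higher and 13 to 16 lower. In 4C11+ against melan-a 2 to 4 were higher and 4 (without 4C11+ replicate 1) to 11 (without melan-a replicate 3) lower. In the difference of the pairs 1 to 3 were above 0, with 1 in the absence of 4C replicate 1, 2 or 3, 4C11- replicate 2 or 4C11+ replicate 1 or 2, and 4 to 8 were below 0, with 8 in the absence of melan-a replicate 3. Calls kept under all alternatives in which the gene was tested were 24 of 28 for the phenotype, 11 of 18 for 4C against melan-a, 2 of 3 for 4C11- against 4C, 23 of 25 for 4C11+ against 4C11-, 4 of 10 for 4C11+ against melan-a and 5 of 7 for the difference of the pairs.

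The same replicate numbers occur in all lines, but same-numbered libraries deviated together with correlations of -0.226 to 0.388, so the numbers were not treated as pairs. With the number as a replicate block, Nrp2 was the 1 member above 0 in the difference of the pairs, and no other count of members moved by over 1.5 times. Depth limits the near absent genes, whose differences are bounds.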
